A study of Mus musculus with 17 samples.

Results

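The genes described here supply, cleave or bind angiotensin II, endothelin-1 and the mineralocorticoid hormones in the heart. They are 8 genes chosen by name, Agt, Ace, Agtr1a, Edn1, Ece1, Ednra, Ednrb and Nr3c2, out of 31647 features counted in mouse hearts at 5d after myocardial infarction (MI). Each of them was matched to its row by gene identifier. Transcript 3' ends were counted in 8 libraries of left ventricle from sham-operated mice and in 9 libraries of the infarct zone (IZ), with one mouse per library. All mice were male C57BL/6J wild-type animals of 8 to 11 weeks, and both groups had isoflurane anaesthesia and buprenorphine for the surgery. No other agent or allele is named in the sources used here, and hemodynamic measurements preceded the collection of organs. MI was made by tying off the left anterior descending coronary artery for good, so the muscle was not reperfused, and sham mice had the operation without the ligature. The comparison is therefore between scar-forming tissue and intact ventricle, 5 days after either operation.

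Angiotensinogen, the product of Agt, is cut by renin and then by angiotensin-converting enzyme (Ace) to angiotensin II, which acts on the AT1 receptor encoded by Agtr1a. Big endothelin-1, made from Edn1, is cut by endothelin-converting enzyme 1 (Ece1) and acts on the receptors Ednra and Ednrb. The mineralocorticoid receptor, encoded by Nr3c2, is a nuclear receptor that binds aldosterone and, in heart muscle cells, mostly glucocorticoid. Drugs against ACE, the AT1 receptor and the mineralocorticoid receptor are in routine use after infarction, and both endothelin receptors and the AT1 receptor couple to Gq proteins.

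The libraries held 1237675 to 4738307 counts. A count was 1 molecule whatever the length of the transcript, and CPM below are counts relative to the library size after TMM scaling, which sets libraries against each other by the bulk of their genes. Of 12301 genes with enough counts to test, edgeR's quasi-likelihood test called 69.5% at the adjusted threshold of 0.05, with 36.3% higher and 33.1% lower in IZ. The higher genes made up 52.3% of the calls, and 85.8% of 10727 calls when total counts alone set the library sizes, which moved the median log2 fold change of all genes by 1.09. The groups did not overlap at all in 33.1% of tested genes, with IZ above sham in 16.6% and under it in 16.5%. The tissues differed in cell markers as follows. The 8 cardiomyocyte markers were all lower and summed to 60428 to 72184 CPM in sham and 2757 to 26854 CPM in IZ. The highest of those IZ sums was in replicate 1, whereas no other IZ library passed 6507 CPM. That replicate also had 19.5% mitochondrially encoded counts, against 4.22 to 6.78% in the other IZ libraries and 22.9 to 32.4% in sham. All 8 macrophage markers were higher (402 to 578 CPM summed in sham, 2214 to 5685 CPM in IZ), as were 7 of 8 fibroblast markers (1533 to 2897 CPM and 11025 to 19086 CPM). Of 8 endothelial markers 4 were lower and none higher (495 to 955 CPM and 361 to 610 CPM). The part of this shift in cell types in the values below was not tested, and in these bulk samples fewer cells of a type and less RNA per cell cannot be told apart.

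Of the 8 genes, 7 passed the filter on low counts. Agtr1a and Nr3c2 fell, to levels where no IZ library reached any sham library, Ace rose, and Edn1, Ece1, Ednra and Ednrb did not pass the test. Called genes with a log2 fold change under -2, as for Agtr1a and Nr3c2, were 7.89% of all tested genes. Agt, with at most 9 counts in a library, was below the filter. So 3 of 7 tested genes were called, 1 higher and 2 lower, beside 69.5% of all tested genes, and their median log2 fold change was -0.03 beside 0.05 for all tested genes. Beside that background the counts are no result about the set, and the genes are described singly. Without IZ replicate 1, 0 were called higher and 3 lower, with Ednra added, Ace lost and Edn1 below the filter.

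**Figure D1:**
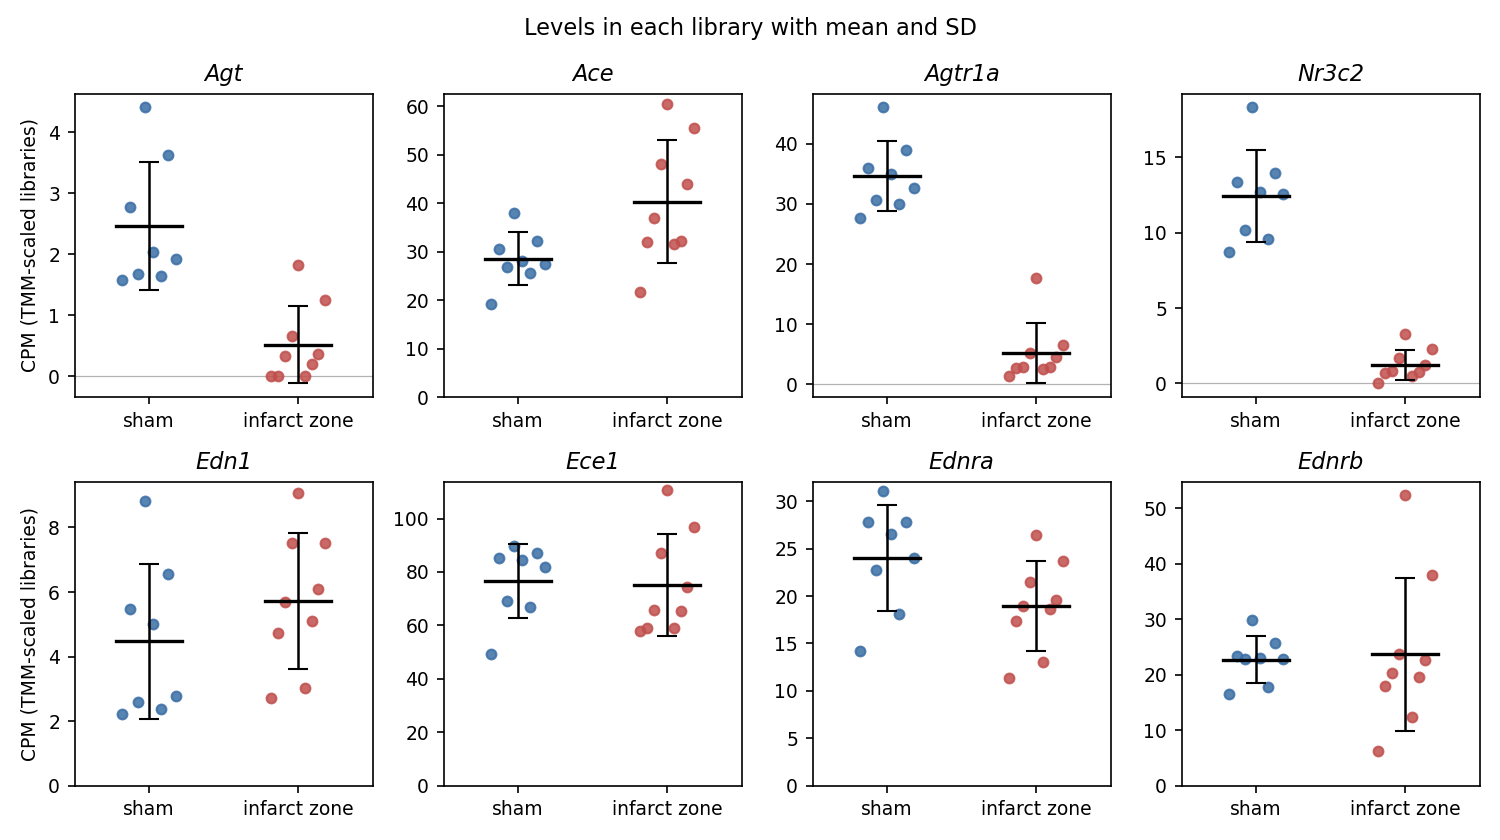
CPM (vertical axis, from TMM-scaled libraries, linear, with its own range in each panel) of the 8 genes in 8 sham and 9 infarct zone libraries, with a point for each library and the mean and SD as bars. The infarct zone points of Agtr1a and Nr3c2 all lie below the sham points, and the infarct zone points of Ednrb spread from 6.23 to 52.4 CPM around a mean close to that of sham.

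Agtr1a (ENSMUSG00000049115, GRCm38 chromosome 13, bases 30336441 to 30382867, plus strand) encodes the main AT1 receptor of the mouse heart. Its sham libraries ran from 27.7 CPM over a median of 33.8 to 46.1 CPM, and its IZ libraries from 1.39 CPM over a median of 2.90 to 17.8 CPM. All 9 IZ libraries lay below every sham library, and the only IZ library above 6.51 CPM was replicate 1. The mean was 34.6 ± 5.87 CPM (SD, n = 8) in sham against 5.17 ± 4.98 CPM (SD, n = 9) in IZ. Agtr1a fell 7.03-fold, a log2 fold change of -2.81 ± 0.32 (SE) with an adjusted p of 5.81e-08 in edgeR. Only 3.13% of tested genes had a lower log2 fold change. Without IZ replicate 1 the IZ mean was 3.59 ± 1.70 CPM (SD, n = 8) and the log2 fold change -3.37, so the fall was larger when the library with the most cardiomyocyte marker counts was left out. The last bases of Agtr1a match its paralog Agtr1b at 95.1% over 144 bases. Agtr1b had no feature of its own in the counts. How reads with several locations were counted was not given in the sources used here, so the Agtr1a counts are uncertain to that extent.

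Agt (ENSMUSG00000031980, chromosome 8, bases 124556534 to 124569706, minus strand), the gene of the precursor of all angiotensins, was close to the counting floor in both tissues. Its sham libraries held 2 to 7 counts with a median of 4, and 4 of 8 held more than 3 counts. Its IZ libraries held 0 to 9 counts with a median of 1, and 3 of 9 held none. The floor of 3 counts was on average 1.79 CPM in sham and 1.06 CPM in IZ, and the mean level was 2.46 ± 1.05 CPM (SD, n = 8) in sham against 0.514 ± 0.633 CPM (SD, n = 9) in IZ. On that scale 8 of 9 IZ libraries lay below every sham library. The mean log2 CPM, with a prior count of 1, was 1.42 in sham and -0.47 in IZ, a difference of -1.90 (exact two-sided permutation p 0.000329, a test chosen after the counts were seen). In edgeR without a filter the log2 fold change was -1.87 ± 0.54 (SE), adjusted p 0.00474. These sizes depend on the prior count and rest on 34 counts in all of sham and 21 in all of IZ.

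Ace (ENSMUSG00000020681, chromosome 11, bases 105967945 to 105989964, plus strand), the peptidase that releases angiotensin II, was higher in IZ. Its sham libraries ran from 19.1 CPM over a median of 27.8 to 38.0 CPM, and its IZ libraries from 21.8 CPM over a median of 36.8 to 60.5 CPM. The groups overlapped, and 4 of 9 IZ libraries lay above every sham library. The mean was 28.5 ± 5.46 CPM (SD, n = 8) in sham against 40.3 ± 12.7 CPM (SD, n = 9) in IZ. Ace rose 1.40-fold, a log2 fold change of 0.49 ± 0.18 (SE, 95% interval 0.13 to 0.84) with an adjusted p of 0.0202 in edgeR. The call rested on IZ replicate 1, which had the highest Ace level, and without it the log2 fold change was 0.35 and the adjusted p 0.0591 (edgeR). The coefficient of variation between libraries was 31.5% in IZ and 19.2% in sham.

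Edn1 (ENSMUSG00000021367, chromosome 13, bases 42301476 to 42307990, plus strand), the endothelin-1 precursor, was a low-count gene. Its sham libraries held 3 to 17 counts, or 2.21 to 8.82 CPM with a median of 3.90, and its IZ libraries 5 to 54 counts, or 2.71 to 9.06 CPM with a median of 5.68. The ranges nearly coincided, and 1 of 9 IZ libraries lay above every sham library. The mean was 4.48 ± 2.41 CPM (SD, n = 8) in sham against 5.72 ± 2.10 CPM (SD, n = 9) in IZ. The log2 fold change of 0.37 ± 0.30 (SE) did not pass the test (edgeR adjusted p 0.273), and its 95% interval was -0.21 to 0.95.

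Ece1 (ENSMUSG00000057530, chromosome 4, bases 137862237 to 137965229, plus strand), the peptidase that activates big endothelin-1, had similar means in both tissues. Its sham libraries ran from 49.3 CPM over a median of 83.1 to 89.6 CPM, and its IZ libraries from 58.0 CPM over a median of 65.8 to 111 CPM. IZ replicates 7 and 3 lay above every sham library, at 111 and 96.7 CPM, and the other IZ libraries within the range of sham. The mean was 76.7 ± 13.8 CPM (SD, n = 8) in sham against 75.1 ± 18.9 CPM (SD, n = 9) in IZ. The log2 fold change was -0.03 ± 0.15 (SE, 95% interval -0.32 to 0.26) with an adjusted p of 0.864 in edgeR, and its sign changed with the scaling and with the library left out.

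Ednra (ENSMUSG00000031616, chromosome 8, bases 77663031 to 77724464, minus strand) encodes the endothelin receptor of smooth muscle and fibroblasts, which narrows vessels. Its sham libraries ran from 14.3 CPM over a median of 25.3 to 31.1 CPM, and its IZ libraries from 11.4 CPM over a median of 19.0 to 26.5 CPM. Every IZ library lay below the 4 highest sham libraries, and IZ replicates 2 and 3 lay below every sham library. The mean was 24.0 ± 5.57 CPM (SD, n = 8) in sham against 19.0 ± 4.75 CPM (SD, n = 9) in IZ. The log2 fold change of -0.38 ± 0.18 (SE) stood just outside the threshold, with an adjusted p of 0.0605 in edgeR. Over the 17 omissions of a single library the log2 fold change ran from -0.49 to -0.27 and the adjusted p in edgeR from 0.0115 to 0.158. It passed in 3 of them, without IZ replicate 1, sham replicate 1 or sham replicate 3, and after thinning to the smallest library it was -0.14 with an adjusted p of 0.484 (edgeR). With total counts alone its log2 fold change was 0.69, which is -0.45 relative to the median of all genes under that scaling. Over the same libraries 4 of 8 pericyte and smooth muscle markers were higher, the contractile genes Acta2, Tagln and Cnn1 among them. The 3 lower ones were Myh11, also a contractile gene, Kcnj8 and Abcc9, with log2 fold changes of -0.92, -1.80 and -2.72. The part of these cells in the Ednra level was not tested.

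Ednrb (ENSMUSG00000022122, chromosome 14, bases 103814625 to 103844402, minus strand) encodes the receptor that endothelial cells use to clear endothelin and release vasodilators. Its sham libraries ran from 16.6 CPM over a median of 22.9 to 29.9 CPM, and its IZ libraries from 6.23 CPM over a median of 20.3 to 52.4 CPM. The IZ values spread to both sides of sham, with replicates 3 and 7 above every sham library, at 52.4 and 38.0 CPM, and replicates 5 and 6 below, at 6.23 and 12.3 CPM. The mean was 22.7 ± 4.18 CPM (SD, n = 8) in sham against 23.7 ± 13.8 CPM (SD, n = 9) in IZ. The log2 fold change was 0.10 ± 0.27 (SE, 95% interval -0.43 to 0.63) with an adjusted p of 0.755 in edgeR, and it was -0.14 without IZ replicate 3. The coefficient of variation between libraries was 18.4% in sham and 58.2% in IZ. IZ replicates 3 and 7 were also the IZ libraries with the most neutrophil marker counts, 173 and 219 CPM. The 6 neutrophil markers summed to 4.62 to 11.7 CPM in sham and 15.9 to 219 CPM in IZ, the 4 that could be tested were higher, and Ly6g was at 0 in sham and at or under 3 counts in all IZ libraries. The endocardial marker sum was also highest in IZ replicate 3 (106 CPM) and lowest in replicate 5 (64.0 CPM), but replicate 6 ranked 2nd (103 CPM). The 4 endocardial markers did not move together between the tissues. Plvap was higher in IZ (log2 fold change 2.35), Npr3 and Cytl1 were lower (-1.66 and -4.65), and Vwf was not called (-0.23). The endothelial sums of IZ replicates 7 and 3 (563 and 518 CPM) ranked 2nd and 3rd, after replicate 1 (610 CPM). The part of these cell types in the Ednrb and Ece1 levels was not tested.

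The balance of the endothelin receptors was formed within each library as the log2 ratio of Ednra to Ednrb counts, with 0.5 added to each count, so that it does not depend on library scaling. It was 0.06 ± 0.47 in sham (SD, n = 8), with a range of -0.67 to 0.68, and -0.15 ± 1.12 in IZ (SD, n = 9), with a range of -2.0 to 1.74. Of the IZ libraries, 1 lay above the range of sham and 3 lay below it. The means differed by -0.21 (exact two-sided permutation p 0.631, adjusted over 2 ratios 0.631), and by 0.020 without IZ replicate 3. Thus neither receptor was called alone, and no shift between them was detected over the spread of the IZ libraries.

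Nr3c2 (ENSMUSG00000031618, chromosome 8, bases 76899442 to 77245012, plus strand), the mineralocorticoid receptor gene, fell more than any other of the tested 7. Its sham libraries held 11 to 33 counts, or 8.71 to 18.3 CPM with a median of 12.7, and its IZ libraries 0 to 9 counts, or up to 3.26 CPM with a median of 0.835. All 9 IZ libraries lay below every sham library, replicate 7 held no count, and the highest was replicate 1. The mean was 12.4 ± 3.06 CPM (SD, n = 8) in sham against 1.24 ± 1.01 CPM (SD, n = 9) in IZ. Nr3c2 fell 10.3-fold, a log2 fold change of -3.36 ± 0.32 (SE) with an adjusted p of 2.51e-09 in edgeR, and 1.28% of tested genes had a lower value. With IZ replicate 1 left out the log2 fold change was -3.68. The 37 counts in all of IZ limit how closely the size of the fall is known.

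The glucocorticoid receptor Nr3c1, the closest relative of Nr3c2 and a receptor for the same hormones, gives a scale that does not depend on library scaling. Nr3c1 was at 78.3 ± 13.6 CPM (SD, n = 8) in sham against 49.1 ± 9.95 CPM (SD, n = 9) in IZ, a log2 fold change of -0.67 ± 0.13 (SE, edgeR adjusted p 8.24e-05) that turned to 0.41 with total counts alone. Relative to the median of all genes under that scaling, Nr3c1 stood at -0.73. The log2 ratio of Nr3c2 to Nr3c1 counts ran from -2.99 to -1.98 in sham and from -7.10 to -4.21 in IZ, again without overlap. Its mean was -2.64 ± 0.38 in sham (SD, n = 8) and -5.44 ± 0.94 in IZ (SD, n = 9). The ratio thus fell 6.95-fold, from 0.160 to 0.0231 (exact two-sided permutation p 8.23e-05, the smallest that exact permutation can give here, adjusted over 2 ratios 0.000165). It was lower in 9 of 9 IZ libraries than in any sham library, IZ replicate 1 included. The 8 cardiomyocyte markers fell over the same libraries with a median log2 fold change of -3.29, and their part in the falls of Nr3c2 and Agtr1a was not tested.

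**Figure D2:**
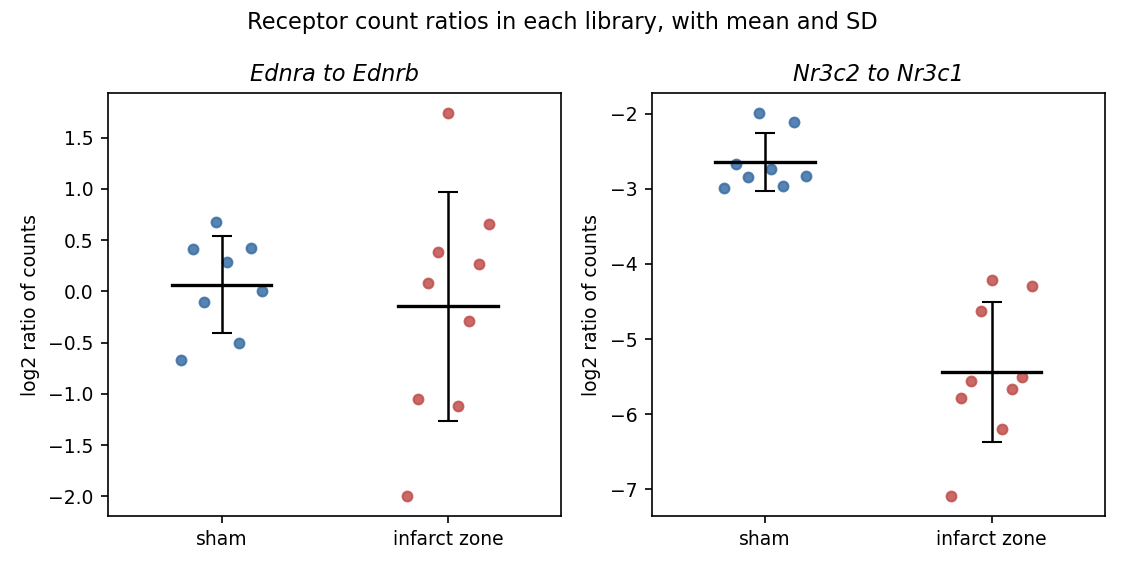
Log2 ratio of counts within each library (vertical axes) for Ednra to Ednrb and for Nr3c2 to Nr3c1 in 8 sham and 9 infarct zone libraries, with a point for each library and the mean and SD as bars. The first ratio overlaps between the groups and spreads from -2.0 to 1.74 in the infarct zone, and the second lies below -4 in all infarct zone libraries and above -3 in all sham libraries.

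The fold changes were also read when library sizes came from total counts alone. The falls of Agtr1a and Nr3c2 stayed, with log2 fold changes of -1.78 and -2.31. The other 5 tested genes were all called higher under that scaling, at 1.54 for Ace, 1.44 for Edn1, 1.07 for Ece1, 0.69 for Ednra and 1.19 for Ednrb, beside a median of 1.14 for all genes. Relative to that median they stood at 0.40, 0.30, -0.08, -0.45 and 0.05 in the same order, close to their values under TMM.

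**Figure D3:**
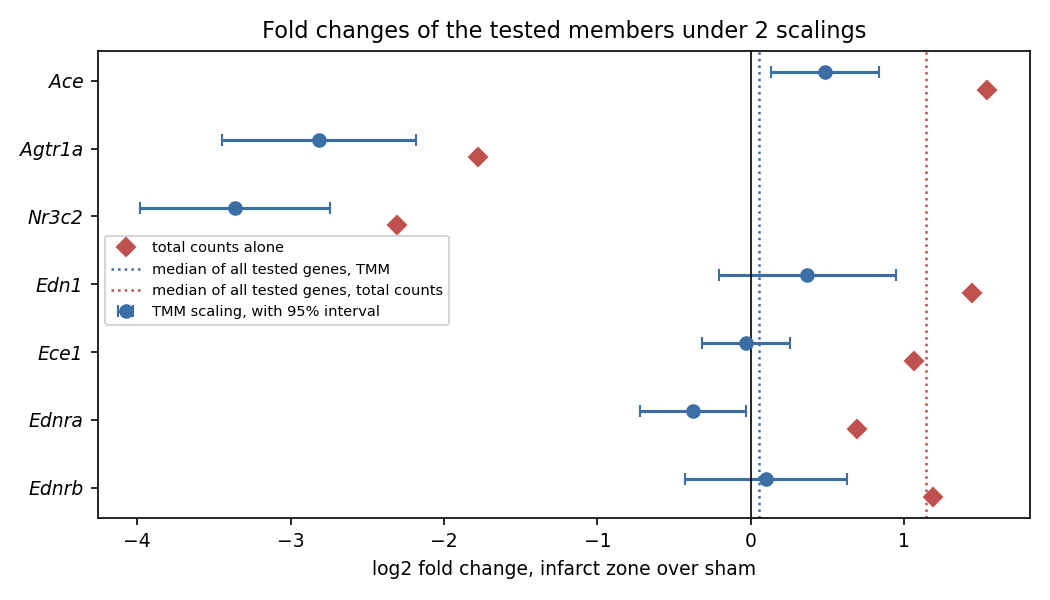
Log2 fold change of IZ over sham (horizontal axis) for the 7 tested genes, with TMM scaling as circles with 95% intervals and with total counts alone as diamonds. The dotted lines mark the median of all tested genes under each scaling, 0.05 and 1.14, and the values of Agtr1a and Nr3c2 lie below 0 under both while Ece1 and Ednra change sign.

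The promoters of the called genes with an entry are shown as the sequence around their starts, at which nothing was measured here, since the counts come from 3' ends. RefSeq promoters of GRCm38.p6, from 250 bases before to 50 bases after a start, were found for 7 of the 8 genes, in 11 windows, with none for Agtr1a. For the first of the Ace windows and for the Nr3c2 window, the stretch before the first annotated exon is printed. It runs 5′ to 3′, on the plus strand, with motif matches in capitals.
Ace, chr11:105967698-105967944: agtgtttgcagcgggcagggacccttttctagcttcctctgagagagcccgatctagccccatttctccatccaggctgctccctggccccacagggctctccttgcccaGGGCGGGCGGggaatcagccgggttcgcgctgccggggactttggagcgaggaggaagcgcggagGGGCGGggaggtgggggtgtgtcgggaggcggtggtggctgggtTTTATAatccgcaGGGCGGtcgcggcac
Nr3c2, chr8:76902080-76902287: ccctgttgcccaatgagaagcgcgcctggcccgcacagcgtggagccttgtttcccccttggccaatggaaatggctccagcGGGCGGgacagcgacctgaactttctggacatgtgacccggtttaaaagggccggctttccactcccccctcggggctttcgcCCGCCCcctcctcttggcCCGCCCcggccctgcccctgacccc
Both strands were searched for the GC box with the letters GGGCGG, for the TATA box as TATAAA, for the AP-1 element with the pattern TGANTCA, and for the steroid receptor half-site as AGAACA. The Ace stretch held 4 GC boxes, of which the first pair overlap each other, and 1 TATA box match on the minus strand. The second Ace window, not printed, held none of the motifs. The Nr3c2 stretch held 3 GC boxes and none of the other motifs, and 2 of the 8 annotated Nr3c2 transcripts start upstream of it and span it. A GC box was found in 35.7% of 32851 promoter windows of 300 bases, a TATA box in 13.6%, an AP-1 element in 7.81% and the half-site in 19.0%. The printed stretches of Ace and Nr3c2 thus both carried the most common of these motifs, and a match is a description of the letters alone.

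The angiotensin list held 19 genes, of which 10 were tested, with 3 higher and 4 lower and a median log2 fold change of -0.23, beside 36.3% higher, 33.1% lower and a median of 0.05 over all tested genes. Leaving out Ace, Agt and Agtr1a, 8 were tested, with 2 higher and 3 lower. Prcp, a lysosomal carboxypeptidase that cleaves angiotensin II, rose most, from 13.5 ± 3.96 CPM (SD, n = 8) in sham to 55.9 ± 10.6 CPM (SD, n = 9) in IZ, a log2 fold change of 2.07 ± 0.16 (SE). Atp6ap2, the prorenin receptor and a part of the proton pump, rose by 1.59 on the log2 scale. Mme (neprilysin), a peptidase that makes angiotensin 1-7 and degrades endothelin, fell by 2.69, and Lnpep, the angiotensin IV receptor, fell by 1.10, a change that was -0.0076 and outside the threshold with total counts alone. Relative to the median of all genes under that scaling, Lnpep stood at -1.15. Renin itself (Ren1) had no count in sham and 1 in all of IZ, and the AT2 receptor Agtr2 had none in sham and 2 in all of IZ. Ctsg, a protease that can form angiotensin II, was likewise at the floor in both tissues. Mas1, the receptor of angiotensin 1-7, had 0 to 7 counts a library in sham, 24 in all, and 0 to 1 in IZ, 2 in all, with an edgeR adjusted p of 7.44e-05 when no filter was set.

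The endothelin list held 8 genes, of which 5 were tested, with 1 higher and none lower and a median log2 fold change of 0.10, where 69.5% of all tested genes were called and their median was 0.05. The higher one was Ece2, a second converting enzyme of acidic vesicles, at 6.79 ± 2.29 CPM (SD, n = 8) in sham against 18.4 ± 5.97 CPM (SD, n = 9) in IZ, with all 9 IZ libraries above every sham library and a log2 fold change of 1.44 ± 0.22 (SE). Edn2 and Kel, a blood group peptidase that activates endothelin-3, had no count in any library. Edn3, a further ligand of Ednrb, had 29 counts in all of sham and 8 in all of IZ, with an edgeR adjusted p of 0.00137 when no filter was set.

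The list around the corticosteroid receptors held 18 genes, of which 13 were tested, with 4 higher and 6 lower and a median log2 fold change of -0.29, set beside the 36.3% higher, 33.1% lower and median of 0.05 of all tested genes. Star, which carries cholesterol into mitochondria for steroid synthesis, rose most, from 2.0 ± 1.19 CPM (SD, n = 8) in sham to 20.5 ± 5.27 CPM (SD, n = 9) in IZ, a log2 fold change of 3.37 ± 0.29 (SE), whereas Cyp11a1, the first enzyme of that synthesis, had 0 to 1 counts a library in both tissues. Hsd11b1, which regenerates active glucocorticoid, fell by 2.07 on the log2 scale, with all 9 IZ libraries below every sham library. Hsd11b2, which inactivates glucocorticoid and so leaves the receptor to aldosterone, had no count in sham and 0 to 3 counts a library in IZ, 10 in all, with an edgeR adjusted p of 0.0237 when no filter was set. Scnn1a, a subunit of the epithelial sodium channel, held 0 to 4 counts a library in sham and up to 3 in IZ. Cyp11b2, the aldosterone synthase gene, had no feature of its own in the counts. The receptor cochaperones moved in opposite directions, with Fkbp4 lower by a log2 fold change of -2.34 (232 CPM in sham and 46.0 CPM in IZ) and Fkbp5 higher by 1.83 (16.1 and 56.8 CPM). Sgk1, Tsc22d3 and Per1, which both corticosteroid receptors are known to induce, did not pass the test. Their log2 fold changes were 0.26 ± 0.16, -0.08 ± 0.24 and -0.29 ± 0.25 (SE, edgeR adjusted p 0.164, 0.791 and 0.317). Under total counts alone Tsc22d3 and Per1 had the opposite sign, at 1.01 and 0.80, or -0.14 and -0.34 relative to the median of all genes. Fkbp5, given above as higher, is also a corticosteroid target, so the targets on this list did not move alike. Nedd4l was called lower, with a log2 fold change of -0.62 (edgeR adjusted p 0.000923), and Lcn2 was below the filter. With total counts alone Nedd4l was at 0.47, or -0.67 relative to the median of all genes.

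Downstream of the AT1 and endothelin receptors, all 26 listed genes of Gq and G12 signalling were tested, with 14 higher and 7 lower and a median log2 fold change of 0.51, while over all tested genes 36.3% were higher and 33.1% lower with a median of 0.05. These counts and medians describe the lists, and nothing is read from them as particular to a list. Prkcb, a protein kinase C that is abundant in leukocytes, rose most, by a log2 fold change of 2.55 ± 0.22 (SE), and Prkce, a protein kinase C that heart muscle cells express, fell most, by 1.58 ± 0.17 (SE). Prkcd rose by 2.39, and Arrb2, an arrestin that ends receptor signalling, by 2.53. Of the G protein subunits, Gna13 rose by 1.15 and Gnaq by 0.60, whereas Gna11 had a log2 fold change of -0.45. With total counts alone that of Gna11 was 0.62, or -0.52 relative to the median of all genes. Plcb4, a phospholipase that Gq activates, fell by 1.17, and Rgs5, a pericyte regulator that speeds the turning off of Gq, fell by 1.19. With total counts alone neither passed the threshold, at -0.12 and -0.16, where the median of all genes was 1.14. The higher genes were read beside the macrophage markers, which rose over the same libraries by a median log2 fold change of 3.26, and the part of those cells was not tested.

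**Figure D4:**
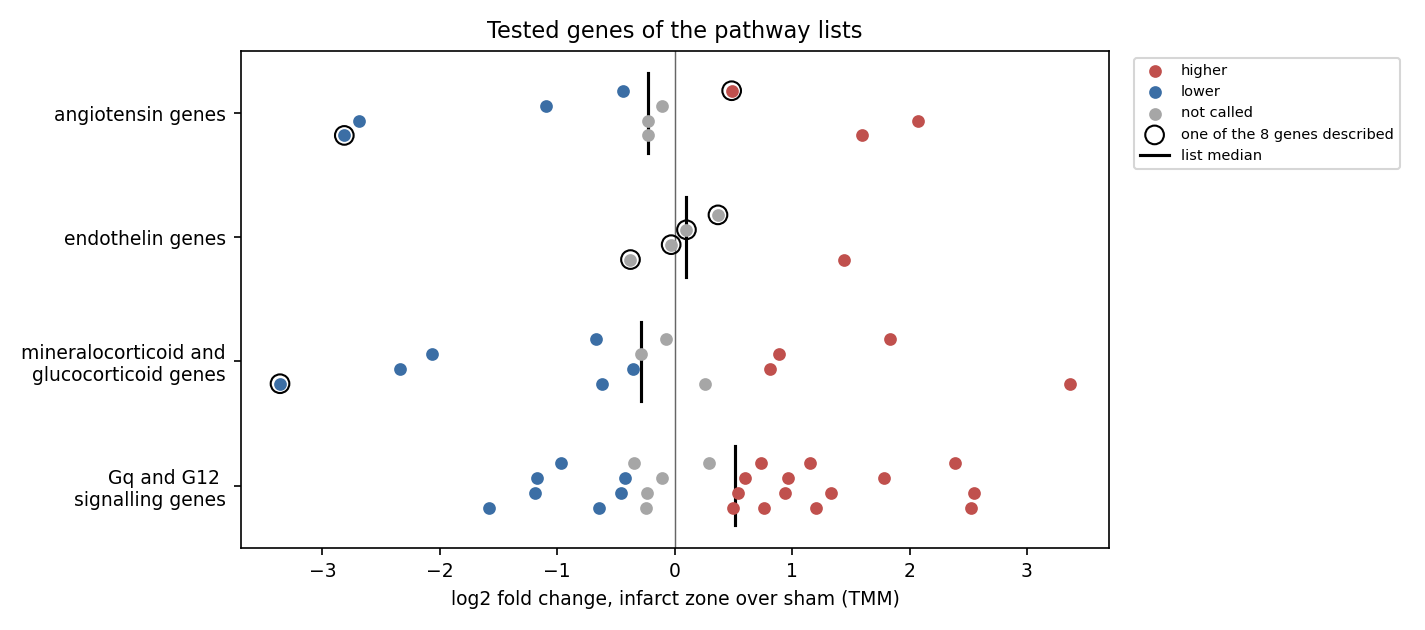
Log2 fold change of IZ over sham under TMM scaling (horizontal axis) for the tested genes of the 4 pathway lists, with a point for each gene colored by its call, rings around those of the 8 genes that were tested and a bar at the list median. The rings of Agtr1a and Nr3c2 are the lowest points of their lists, and the endothelin points stay between -0.38 and 0.37 apart from Ece2 at 1.44.

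The genes whose levels followed each of these most closely over the 17 libraries were sought among 11580 tested genes that averaged 5 CPM or more, by the root mean square difference of log2 CPM centred on each gene's mean. For Agtr1a they were Whrn (0.35) and Acadl (0.38), a mitochondrial fatty acid oxidation enzyme, beside a median difference of 1.69 over all genes compared. For Nr3c2 they were Sptb (0.42), a spectrin of the membrane skeleton, and Bves (0.44), a membrane protein of striated muscle, beside a median of 1.81. Both pairs fell in IZ, with log2 fold changes of -2.64 for Whrn, -2.86 for Acadl, -2.74 for Sptb and -3.04 for Bves. For Ace they were Cd34 (0.26), a surface marker of endothelial and progenitor cells, and Igf1r (0.27). For Ece1 they were Arpc1a (0.18) and Wdr43 (0.18), for Ednra 1810058I24Rik (0.26) and Lcmt1 (0.26), for Edn1 Prkx (0.43) and Noc2l (0.43), and for Ednrb Kdm5d (0.42) and Grap (0.43). These likenesses are descriptions, and the difference between the tissues is part of all of them.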

How the data were processed

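The authors isolated total RNA with DNase treatment and made MACE 3' end libraries with molecular identifiers for duplicate removal. Reads were trimmed with Cutadapt, and bcl2fastq, Bowtie2, HTSeq and DESeq2 are named for mm10 in the submitters' processing notes. The deposited values are raw counts per gene, not normalized. The annotation release and the use of strand in counting are not given in the sources used here. Some antisense genes overlap Ace, Edn1, Ece1, Ednra and Nr3c2, and those with counts of their own held at most 7 a library. Gm48161, on the same strand within Agtr1a, held at most 8.

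Here all 17 columns were used. The count test was that of edgeR 4.0.16 (R 4.3.3, filterByExpr with a minimum of 10 counts, TMM scaling, two-sided quasi-likelihood F-test without covariates, Benjamini-Hochberg adjustment over 12301 genes, threshold 0.05). Log2 CPM used a prior count of 1. Receptor ratios and Agt were tested by exact permutation (SciPy 1.17.1). Coordinates come from GENCODE vM21 (GRCm38), near-identical 3' ends from a BLAST 2.17.0 search of the final 500 transcript bases (95% identity over 100 bases or more). No 2 libraries were copies of each other. The count test was run on simulated counts with few changed genes, as many up as down. Since 69.5% of tested genes were called in the real data, that run does not check the scaling used here.

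The 8 genes and all lists were chosen with earlier results of these data known. The text names the 8 genes, the called genes with the highest and the lowest fold change of each list, ratio partners, list genes at the floor and the 2 nearest profiles. Other list genes were chosen after their values were seen, and 1 planned ratio is not reported here. Alternatives were DESeq2 1.42.0 (Wald test, and its size factors in edgeR), upper quartile scaling, total counts alone, no filter, a mean of at least 50 counts, thinning to the smallest total of 1237675 counts, a table without mitochondrially encoded features, a block for the replicate number, and each library left out once. The exact test of Agt was added after seeing the data. Floors of 3 counts cover counting error only, at depths of 1237675 to 4738307 counts.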

Additional observations from a re-analysis of the deposited data

Results flagged for a closer look

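The CPM of Agtr1a in infarct zone replicate 1 stood apart from the other infarct zone libraries. Its gap to the next library took 0.687 of the whole range of the group. It was at 17.8 CPM, and the other 8 libraries were at 1.39 to 6.51 CPM. This was the only library so far from the rest in the 20 groups examined, in which chance flags about 1 in 20. The same library had the highest cardiomyocyte marker sum of its group (26854 CPM) and the highest mitochondrial share (19.5%), and their part in the Agtr1a level was not tested. Without it the log2 fold change of Agtr1a was -3.37 in place of -2.81.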

How the results depend on the processing

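The falls of Agtr1a and Nr3c2 kept their direction and their side of the threshold in each of the 25 and 24 alternatives that could test them (Agtr1a was filtered out by a mean of 50 counts, Nr3c2 also by thinning), so that the count of the 8 genes called lower was 0 with that filter and 1 with thinning. Leaving out a library gave 2 to 3 lower and 0 to 1 higher (0 without infarct zone replicate 1). The count called higher was 5 with total counts alone. With the replicate number as a block it was 0, since Ace had a log2 fold change of 0.46 and an adjusted p of 0.0629 (edgeR). The numbers share no origin in the labels, and only 1 of 8 pairs of the same number correlated over 0.1. The block also turned Ednrb to -0.050, and 1 sham library correlated best with its own number. With total counts alone, 7 angiotensin genes were higher and 2 lower, 5 endothelin genes higher, 10 corticosteroid receptor genes higher and 3 lower, and 1 signalling gene lower. With a mean of 50 counts, fewer genes were tested, and 1 angiotensin, 3 corticosteroid and 4 signalling genes were lower and 0 endothelin genes higher. Lower angiotensin genes numbered 8 in DESeq2 and 2 after thinning. Lower endothelin genes numbered 1 in DESeq2 and 1 without a filter, in both cases the low-count Edn3 and not Ednra. They numbered 0 to 1 when a library was left out (1, Ednra, without infarct zone replicate 1, sham replicate 1 or sham replicate 3). Signs turned for Ece1 (0.027 without a filter, 0.015 after thinning, 0.080 with upper quartile scaling, 1.07 with total counts alone, -0.11 to 0.029 over omitted libraries), Tsc22d3 (0.047 after thinning, 0.034 with upper quartile scaling, 1.01 with total counts alone, -0.22 to 0.067 over omitted libraries), Ednrb (-0.14 to 0.23 over omitted libraries) and, with total counts alone, Ednra (0.69, and -0.14 after thinning), Nr3c1 (0.41), Per1 (0.80) and Gna11 (0.62). The difference in the Ednra to Ednrb ratio was -0.45 to 0.020 over omitted libraries. Set against the median of all genes under total counts alone, Nr3c1 stood at -0.73, Per1 at -0.34, Gna11 at -0.52 and Tsc22d3 at -0.14. The cause of the changes between alternatives was not tested. Edn1 could not be fitted in 6 alternatives and Agt in 24, where the filter removed them. Depth limits Agt, Nr3c2 and Edn1 most.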
